A study of Peromyscus californicus with 17 samples.

Results

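The 5 genes described here, Alas2, Slc4a1, Ahsp, Epb42 and Klf1, are markers of the red cell lineage, taken by symbol from the 27786 genes measured in the lungs of male Peromyscus californicus, the monogamous California mouse. RNA-seq covered 17 animals with 1 library each, of which 6 were bonded (B1 to B6), 6 were bond-disrupted (BD1 to BD6) and 5 were virgin (V2 to V6). All were males of the genetically diverse IS stock, 12 to 15 months old, and no transgene or drug was involved. Bonded males had lived with a mate for 4 months; bond-disrupted males had done the same and were then taken out of the mating cage, with the lungs collected 7 days later. Virgin males of similar age were housed in groups. Animals that carry the same number are siblings, or in some cases cousins, spread over the groups. The comparisons ask whether the bonding history of a male is reflected in these lung transcripts. No source used here says whether blood was flushed from the lungs before RNA was taken.

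Red cells arise from precursors in bone marrow and spleen that switch on haem synthesis, globin genes and a specialised membrane before the nucleus is lost. The youngest circulating red cells, the reticulocytes, still carry mRNA, so that transcripts of this lineage are commonly found in blood-filled organs such as the lung. Klf1 encodes the erythroid Kruppel-like transcription factor. Alas2 encodes the erythroid form of the enzyme that starts haem synthesis, and Ahsp a chaperone that holds free alpha globin in solution. Slc4a1 encodes band 3, the anion exchanger of the red cell membrane, and Epb42 encodes protein 4.2, which ties band 3 to the membrane skeleton.

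The values were deposited as FPKM, that is, reads scaled by the length of the gene and by the depth of the library. In the deposited table each value had been divided by the length of another gene, the one 1 row above for the first animal and 1 row further up for each later animal. For the erythroid genes the length used ranged from 0.0253 to 14.6 times the gene's own length. The reads behind the values were therefore recovered, and FPKM was computed again with each gene's own length, which is the scale used below unless stated otherwise. All 85 values of the 5 genes could be recovered. The depth that enters the FPKM, known up to a factor of 2, ranged from 30800000 to 68200000 reads (to the nearest 100000). Of the recovered whole counts of 1 to 20 reads, 88.2% were even, as they would be if the 2 ends of a fragment were counted separately. The depth had a median of 36800000 in bonded, 46500000 in bond-disrupted and 43900000 in virgin animals. Alveolar genes marked the tissue as lung in every animal, with Sftpc, the gene of surfactant protein C, lowest at 12000 FPKM in BD2.

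Alas2 was the most abundant of the 5 genes in all 17 animals. In bonded animals it ranged from 3.57 FPKM in B5 to 23.4 in B4, with a median of 6.94. In bond-disrupted animals it ranged from 0.958 in BD2 to 14.8 in BD1, with a median of 9.63. The virgins stood at 6.20 in V2, 5.99 in V3, 9.55 in V4, 13.99 in V5 and 5.93 in V6. The 3 groups overlapped over most of their range, and the 24.4-fold distance between B4 and BD2 lay between animals and not between group means, which were 9.03 ± 7.41 (SD, n = 6), 9.33 ± 5.52 (SD, n = 6) and 8.33 ± 3.51 (SD, n = 5) for bonded, bond-disrupted and virgin animals. The count behind these levels ran from 137.66 reads in BD2, the only count of the 5 genes that was not whole, to 2822 in BD4.

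Slc4a1 stood about an order of magnitude lower. Bonded animals ranged from 0.117 FPKM in B5 to 2.53 in B4 (median 0.342), and bond-disrupted animals from 0.0115 in BD2 to 2.22 in BD3 (median 0.857). Virgins held 0.713 in V2, 0.338 in V3, 0.951 in V4, 1.42 in V5 and 0.810 in V6. BD2 had 2 reads of this gene where the other animals had 16 to 416, so that its level is poorly determined. The highest values, in B4, BD1 and BD3, came from the bonded and the bond-disrupted group, while the virgins lay in the middle of the range.

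Ahsp followed a similar order of animals, except that BD2, the lowest animal for Slc4a1, was low but not last. It ranked 13th of 17 for Ahsp at 0.226 FPKM, from 8 reads. Ahsp ranged from 0.144 FPKM in B5 to 3.24 in B4 among bonded animals (median 0.287). Among bond-disrupted animals it ranged from 0.210 in BD5 to 3.12 in BD1 (median 0.983). Virgins held 0.681 in V2, 0.4996 in V3, 0.902 in V4, 1.12 in V5 and 0.777 in V6. This is the shortest of the 5 genes, with 803 bases, and its reads were few, from 4 in B5 to 120 in BD1, with fewer than 20 reads in 8 animals. The mean of the bond-disrupted animals, 1.35 ± 1.25 FPKM (SD, n = 6), was above that of the bonded animals, 0.773 ± 1.22 (SD, n = 6), by less than either SD.

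Epb42 was the lowest of the 5 genes in 14 animals. Bonded animals ranged from 0.0385 FPKM in B3 to 1.34 in B4 (median 0.164), and bond-disrupted animals from 0 in BD2 to 0.344 in BD3 (median 0.157). Virgins held 0.179 in V2, 0.190 in V3, 0.523 in V4, 0.138 in V5 and 0.0877 in V6. B4, with 126 reads, was the only animal above 1 FPKM. The count of 0 reads in BD2 allows a level of up to 0.0447 FPKM if 3 pairs of reads are taken as the limit, since every count of this gene was even, and of 0.0223 FPKM if 3 single reads are. This limit, like every precision drawn from reads here, covers counting error only.

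Klf1, the transcription factor, varied least. Bonded animals lay between 0.523 FPKM in B5 and 0.832 in B1 (median 0.677), and bond-disrupted animals between 0.320 in BD2 and 1.63 in BD1 (median 0.480). Virgins held 0.964 in V2, 0.516 in V3, 0.472 in V4, 0.705 in V5 and 0.580 in V6. B4, the highest animal for the other 4 genes, ranked 5th of 17 for Klf1 at 0.752 FPKM, while BD2 was the lowest animal for Klf1 and for 3 of the other 4 genes. Per length, the order of the means over all animals was Alas2 (8.93 FPKM), Ahsp (0.982), Slc4a1 (0.875), Klf1 (0.679) and Epb42 (0.236). Ahsp, Slc4a1 and Klf1 did not differ beyond their spread: Ahsp was above Slc4a1 in 10 of 17 animals and Klf1 was above Slc4a1 in 8.

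**Figure D1:**
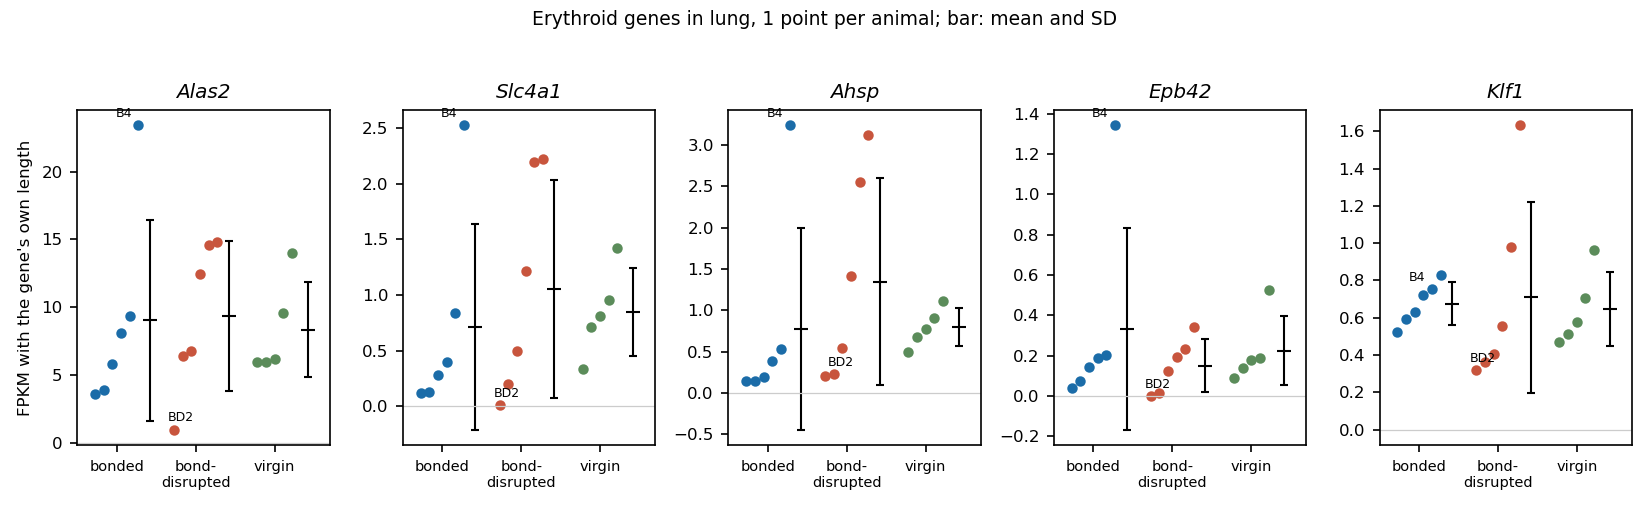
FPKM with the gene's own length for each of the 5 erythroid genes, with 1 point per animal in the 6 bonded, 6 bond-disrupted and 5 virgin animals and a bar for the mean and SD of the group; the scale differs between panels. B4 is the highest animal for Alas2, Slc4a1, Ahsp and Epb42, BD2 is the lowest for Alas2, Slc4a1, Epb42 and Klf1 but 13th of 17 for Ahsp, and the 3 groups overlap for each gene.

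None of the 5 genes differed between groups by more than the spread between animals. The genes were tested with limma on log2(FPKM + 1) across 14073 genes, each at 1 FPKM or more in some animal, and a gene was called when it differed 2-fold or more with an adjusted p (Benjamini-Hochberg) below 0.1. All 5 passed the filter on low values, but Epb42 only through B4 and Klf1 only through BD1, so that passing says nothing about their groups. In each of the 3 comparisons 0 of 5 genes were called, against a background of 0% of all genes called, and a share of 0 of 5 therefore does not set these genes apart. At an unadjusted p under 0.05, limma found 828 genes for bond-disrupted against bonded, 507 for virgin against bonded and 595 for virgin against bond-disrupted, none of them an erythroid gene. The recovered reads in limma's voom also gave 0 calls in each comparison, with 1021, 566 and 721 genes at an unadjusted p under 0.05. Siblings and cousins are spread over the groups, and p-values measure the spread between animals.

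For bond-disrupted against bonded animals, the largest difference was that of Ahsp, 0.42 on the log2(FPKM + 1) scale (SE 0.34, 95% interval −0.31 to 1.15, limma adjusted p = 0.880). Bond-disrupted animals were higher by 0.25 (SE 0.32) for Slc4a1 and by 0.01 (SE 0.48) for Alas2. The differences of Epb42, −0.15 (SE 0.16), and Klf1, −0.02 (SE 0.14), were in the other direction. The median of the 5 differences was 0.01, beside 0.01 over all genes tested. The adjusted p-values ran from 0.880 for Ahsp to 1.00 for Alas2 (limma). For Alas2 the interval, −1.01 to 1.04, does not exclude a doubling in either direction, whereas for Klf1 it was −0.32 to 0.29. The scale understates changes of genes under 1 FPKM: as recovered reads in voom, whose scale has no added 1 FPKM, the difference was 1.22 for Ahsp (SE 0.79, adjusted p = 0.865) and −1.06 for Epb42 (SE 1.00, adjusted p = 0.901).

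For virgin against bonded animals, Slc4a1 differed by 0.21 (SE 0.33), Ahsp by 0.20 (SE 0.36), Alas2 by 0.08 (SE 0.51), Epb42 by −0.07 (SE 0.17) and Klf1 by −0.03 (SE 0.15), each with a limma adjusted p of 1.00. In voom the differences of Slc4a1 and Ahsp were 1.12 (SE 1.04) and 1.12 (SE 0.84), again with an adjusted p of 1.00. The median over the 5 genes was 0.08, beside 0.01 over all genes. For virgin against bond-disrupted animals, Ahsp differed by −0.22 (SE 0.36), Epb42 by 0.09 (SE 0.17), Alas2 by 0.07 (SE 0.51), Slc4a1 by −0.04 (SE 0.33) and Klf1 by −0.01 (SE 0.15). The smallest adjusted p of these was 0.956, for Ahsp (limma). In voom, Epb42 differed by 1.38 (SE 1.03, adjusted p = 0.960). The comparisons share groups, so that these values are not independent of each other. In bulk tissue, fewer red cell precursors or reticulocytes and less of a transcript per cell cannot be told apart.

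The deposited lengths changed the direction of several of these differences. As deposited, Klf1 read 38.1 FPKM in V2 and 19.3 in V3, where its own length gave 0.964 and 0.516, since these animals' values had been divided by lengths of 70 and 74 bases. The difference of virgin against bond-disrupted animals was then 1.40 (SE 0.83) for Klf1 and −0.90 (SE 0.41, unadjusted p = 0.0435, adjusted p = 0.720 by limma) for Ahsp. As deposited, 0 of the 5 genes were called in any comparison, beside 0.215% of 18602 genes for bond-disrupted against bonded, 0.607% for virgin against bonded and 0.188% for virgin against bond-disrupted.

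**Figure D2:**
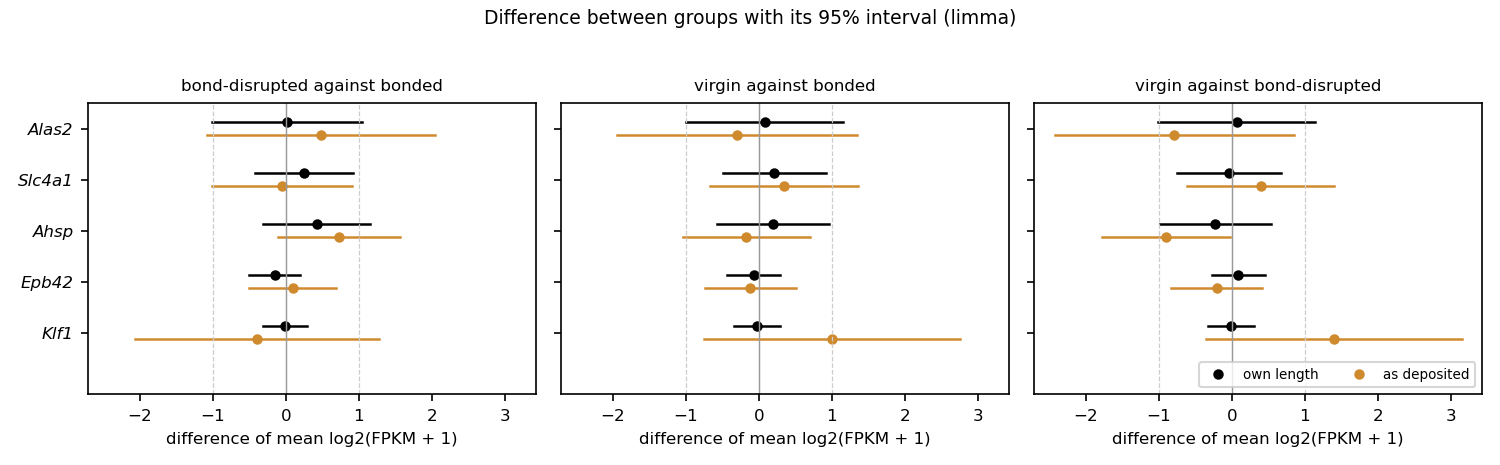
Difference between group means of log2(FPKM + 1) for the 5 erythroid genes in the 3 comparisons, with 95% intervals from limma, for values with each gene's own length (black) and as deposited (orange); dashed lines mark a doubling. With own lengths every interval includes 0, and as deposited the points of Klf1 lie at 1.00 and 1.40 in the comparisons with virgins.

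The animals differed more than the groups. The SD of log2(FPKM + 1) within groups was 0.90 for Alas2, 0.64 for Ahsp and 0.59 for Slc4a1, larger than in 98.6%, 95.8% and 94.9% of the 14073 genes tested. It was 0.30 for Epb42 and 0.26 for Klf1, at the 71.8 and 63.9 percentiles, beside a median of 0.21 for all genes. The added 1 FPKM narrows this SD for genes under 1 FPKM. Within the virgins the highest and lowest animals were 2.36-fold apart for Alas2, 4.21-fold for Slc4a1 and 2.23-fold for Ahsp, and within the bonded animals the distance was 6.56-fold, 21.6-fold and 22.4-fold. It was 15.5-fold, 194-fold and 14.8-fold within the bond-disrupted animals. Without B4 the bonded distances were 2.62-fold, 7.16-fold and 3.71-fold, and without BD2 the bond-disrupted distances were 2.32-fold, 10.96-fold and 14.8-fold. For Epb42 the distance was 34.9-fold within the bonded animals (5.25-fold without B4) and 5.96-fold within the virgins. Within the bond-disrupted animals it was 24.8-fold without BD2, which had 0 reads. The lowest of those animals, BD5, had 2 reads of Epb42. For Klf1 the distance was 1.59-fold, 2.04-fold and 5.1-fold within bonded, virgin and bond-disrupted animals. Whether the spread differed between groups was not tested.

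Over the 17 animals of the 3 groups pooled, most pairs of the 5 genes varied together. With group means subtracted, Slc4a1 and Ahsp correlated over the 17 animals with r = 0.97 and rho = 0.98 (permutation p = 1e-05 for both, the smallest that 100000 permutations can give; adjusted p = 0.0001 over the 10 pairs). Alas2 correlated with Slc4a1 (r = 0.79, permutation p = 0.00019, adjusted p = 0.00095; rho = 0.71, p = 0.00207, adjusted p = 0.00345) and with Ahsp (r = 0.72, permutation p = 0.00094, adjusted p = 0.00188; rho = 0.64, p = 0.00646, adjusted p = 0.00808). The membrane gene Epb42 correlated with Ahsp (r = 0.80, permutation p = 0.00049, adjusted p = 0.00123; rho = 0.74, p = 0.00105, adjusted p = 0.00334). It also correlated with Slc4a1, its partner in the membrane (r = 0.75, permutation p = 0.00049, adjusted p = 0.00123; rho = 0.73, p = 0.0014, adjusted p = 0.00334), and with Alas2 (r = 0.65, permutation p = 0.00943, adjusted p = 0.0118; rho = 0.73, p = 0.00141, adjusted p = 0.00334).

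Klf1 correlated with Slc4a1 (r = 0.69, permutation p = 0.00199, adjusted p = 0.00332; rho = 0.72, p = 0.00167, adjusted p = 0.00334) and with Ahsp (r = 0.69, permutation p = 0.00328, adjusted p = 0.00469; rho = 0.68, p = 0.00333, adjusted p = 0.00476). Its correlations with Alas2 (r = 0.46, adjusted p = 0.0797; rho = 0.38, adjusted p = 0.143; permutation tests) and Epb42 (r = 0.22, adjusted p = 0.365; rho = 0.27, adjusted p = 0.289) did not pass an adjusted p of 0.05. In all, 8 of 10 pairs passed. Without the 2 animals farthest from the median of the first gene, 4 of 10 passed. Slc4a1 and Ahsp then had r = 0.96, and Klf1 had r = 0.77 with Slc4a1 and 0.76 with Ahsp. Ahsp and Epb42 had r = 0.67. The 3 pairs of Alas2 with Slc4a1, Ahsp and Epb42, and the pair of Slc4a1 with Epb42, did not pass without those animals, which were BD2 and B4 for Alas2 and B4 and BD3 for Slc4a1: r was 0.56, 0.45, 0.37 and 0.49, with adjusted permutation p from 0.0517 to 0.191. The 5 virgins were too few for correlations of their own, and the pooled values do not show that each pair varied together among them: V5 was their highest animal for Alas2, Slc4a1 and Ahsp, but V4 was the highest for Epb42 and V2 for Klf1.

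**Figure D3:**
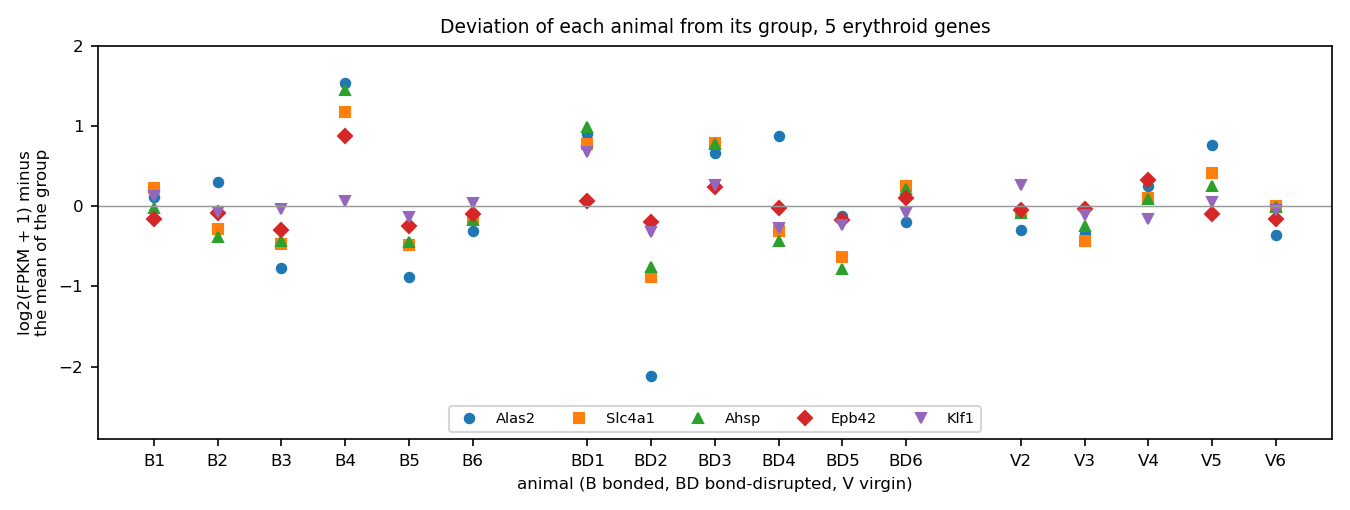
Deviation of each animal from the mean of its group on the log2(FPKM + 1) scale, for the 5 erythroid genes in 17 animals. Alas2, Slc4a1, Ahsp and Epb42 are raised together in B4, Alas2, Slc4a1 and Ahsp are raised in BD1 and BD3 and lowered in BD2, and Klf1 is raised in BD1 but near 0 in B4.

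The level of Ahsp relative to Slc4a1 varied far less than the levels themselves, in all animals but BD2. In 16 of 17 animals the ratio of their FPKM lay between 0.639 in B1 and 1.48 in V3, over a range of levels of 20-fold and more. The exception was BD2, at 19.7, which rests on 8 reads of Ahsp and 2 of Slc4a1. In B5, B2, B3 and BD5 the ratio also rests on few reads of Ahsp: 4, 6, 8 and 8. Alas2 was less closely tied: its ratio to Slc4a1 ran from 5.27 in BD6 to 33.5 in BD5 outside BD2, being 5.61 in BD3 and 6.75 in BD1 but 29.0 in BD4, 32.8 in B2, 31.2 in B3 and 30.6 in B5. BD4 in particular had the third highest Alas2, 14.6 FPKM, with Slc4a1 at 0.501 and Ahsp at 0.545. As deposited, the correlation of Slc4a1 and Ahsp was 0.08 and 0 of 10 pairs passed an adjusted p of 0.05 in the same permutation tests.

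**Figure D4:**
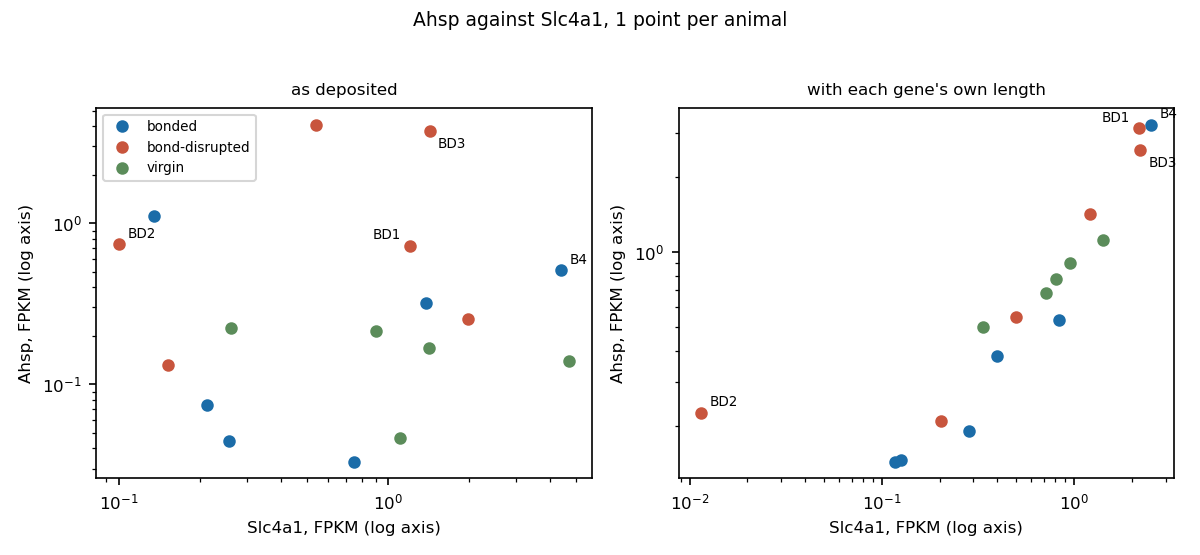
FPKM of Ahsp against FPKM of Slc4a1 on log axes, with 1 point per animal coloured by group, as deposited (left) and with each gene's own length (right). On the right the animals from B5 to B4 line up and BD2, with 2 reads of Slc4a1, lies off the line; on the left no such order is seen (r = 0.08 on the scale of the text).

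The genes whose deviations were most like the mean of the 5 ranged from abundant to rare transcripts. Among 12596 other genes with a mean of at least 1 FPKM, 9 of the 10 with the highest correlation over the 17 animals are described here. They included LOC128123026 (r = 0.88), Lsm1 (r = 0.84), LOC128122962 (r = 0.83) and LOC128122964 (r = 0.83). The 3 genes with LOC names are protein-coding, carry a locus number in place of a symbol, and fill 3 of the 4 rows directly above Hbz, the embryonic zeta globin gene, in the deposited table; their products are not given in the sources used here. LOC128123026 and LOC128122964 were among the abundant lung transcripts, with means of 1202 and 970 FPKM. LOC128123026 reached 2763 FPKM in B4 and 2424 in BD1 and stood at 168 in BD2, the next lowest animal being V3 at 653. LOC128122964 reached 2124 FPKM in B4 and 1716 in BD1 and stood at 163 in BD2. In 3 of 17 animals their counts held fractions of a read, the source of which was not tested, so that the level of each is uncertain.

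The other genes described were Gnptg (r = 0.80), Stmp1 (0.80), Tars1 (0.78), Arpc3 (0.78) and Prdx2 (0.78), the last encoding peroxiredoxin 2, an abundant antioxidant enzyme of red cells. They varied far less than the erythroid genes: Prdx2 ranged from 93.8 FPKM in BD2 to 136 in B6, and Lsm1 from 12.1 in BD2 to 20.9 in BD1. The most negative correlations were those of LOC128125364, a long non-coding RNA (r = −0.87), Naa16 (−0.83) and Ctdspl2 (−0.80). These are descriptions over 17 animals and all genes; 810 of the 12596 genes had r over 0.5 and 554 had r under −0.5. None of these 12 genes was called in any comparison, with the background of calls given above.

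Genes of the red cell lists were likewise not called, as was the case for all genes. Of 50 tested genes in 4 lists (haem synthesis and iron supply, red cell membrane and skeleton, erythroid transcription factors and receptors, and late red cell genes), 0 were called and 0 had an unadjusted p under 0.05 in any of the 3 comparisons (limma), beside 0% of all genes called and 5.88%, 3.60% and 4.23% of them with an unadjusted p under 0.05. Their median difference was 0.03, 0.03 and −0.01 for bond-disrupted against bonded, virgin against bonded and virgin against bond-disrupted, beside 0.01, 0.01 and 0.01 over all genes. With the mean of the 5 erythroid genes, 13 of the 50 (26.0%) had r over 0.5, beside 6.17% of the 14068 other genes tested, and the median r was 0.17 beside 0.02.

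In haem synthesis and iron supply, 12 of 15 genes were tested. Alas1, the housekeeping counterpart of Alas2, was far more abundant, from 68.4 FPKM in V2 to 177 in V4, and did not follow the erythroid genes (r = −0.40). Urod, uroporphyrinogen decarboxylase, ranged only from 23.6 to 34.3 FPKM (r = 0.53). Alad, which makes porphobilinogen, showed the largest difference of the list, 0.33 (SE 0.25, limma adjusted p = 0.950; 0.20 without BD5 and 0.52 without BD3) for virgin against bond-disrupted animals. Most enzymes of this path are used by every cell that makes haem, and 3 of the 12 tested had r over 0.5 with the erythroid genes.

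Of the red cell membrane genes, 12 of the 17 that matched a symbol were tested. The blood group gene Kel ranged from 0.335 FPKM in BD2 to 3.17 in B4 (r = 0.55). Cd59, a complement inhibitor found on many cells, ranged from 56.1 to 111 FPKM (r = 0.61), and the water channel Aqp1, also strong in lung endothelium, was highest in BD2 at 49.9 FPKM (r = −0.27). Icam4 differed by −0.34 (SE 0.20, limma adjusted p = 0.876) in bond-disrupted against bonded animals, the largest difference of the list.

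Of the erythroid transcription factors and receptors, 11 of 14 were tested. Nfe2, shared with megakaryocytes, was lowest in BD2 (0.558 FPKM) and highest in B4 (3.00), with r = 0.64, and Lmo2, also an endothelial gene, was highest in B4 at 59.7 FPKM (r = 0.62). Ldb1, a broadly expressed partner of Lmo2, ranged from 29.2 to 43.8 FPKM (r = −0.04), and Myb, a factor of early precursors, from 2.74 to 7.29 (r = −0.31). Nfe2 differed by 0.30 (SE 0.20; 0.18 without BD2) and Myb by 0.25 (SE 0.25; 0.11 without V6 and 0.38 without V2) in virgin against bond-disrupted animals, each with a limma adjusted p of 0.950. Gata1, the central factor of the lineage, was recovered in 15 animals and ran from 0.0367 FPKM in BD2 to 1.10 in B4.

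Of the late red cell genes, 15 of 19 were tested. Hemgn, an erythroid nuclear protein gene singled out after its values were seen, had r = 0.93 with the erythroid genes and reached 1.61 FPKM in B4, 1.23 in BD3 and 1.06 in BD1, with 0 in B3 and BD2. Bpgm, whose product makes the 2,3-bisphosphoglycerate that lowers the oxygen affinity of haemoglobin, ranged from 28.0 to 56.3 FPKM (r = 0.68). The carbonic anhydrase Ca2 ranged from 55.4 FPKM in BD2 to 120 in BD1 (r = 0.57). Tent5c did not follow the erythroid genes closely (r = 0.19), and its largest difference was 0.38 (SE 0.23, limma adjusted p = 1.00; 0.20 without V6) for virgin against bonded animals. Of the globin list, 1 of 16 symbols matched a row, Hbz, and no animal had more than 0.0102 FPKM of it.

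Among genes of red cell clearance and iron recycling, 8 were tested and 0 were called. The ferritin genes Fth1 and Ftl were abundant and even, with means of 1383 and 992 FPKM (r = 0.54 and 0.33). Slc11a1, a metal transporter of phagocytes, was 0.72 higher (SE 0.34, limma adjusted p = 0.950) in virgin than in bond-disrupted animals, and Hpx, hemopexin, differed by −0.33 (SE 0.22, limma adjusted p = 0.950) between the same groups, or by −0.085 without BD3, which held 3.69 FPKM.

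**Figure D5:**
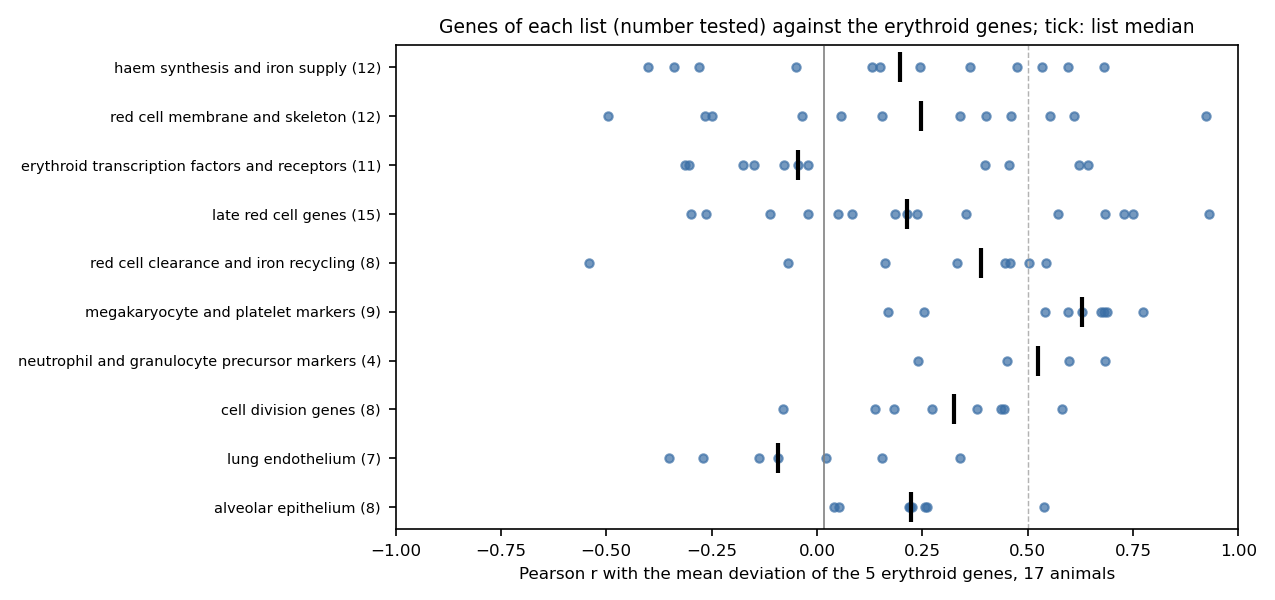
Pearson r of each tested gene with the mean deviation of the 5 erythroid genes over 17 animals, by list, with the number of genes in brackets, a tick at the median of the list, a grey line at the median of all genes tested (0.02) and a dashed line at 0.5. Megakaryocyte and platelet markers have the highest median, 0.63, lung endothelium the lowest, −0.09, and the red cell lists hold genes on both sides of 0.

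Markers of platelets and their precursors varied with the erythroid genes. Of the 9 megakaryocyte and platelet markers tested, 7 had r over 0.5 (median 0.63). Their summed level was 279 FPKM in B4, beside 35.1 to 109 in the other 16 animals, and it was 76.1 in BD1, 64.6 in BD3 and 45.3 in BD2. Ppbp, the platelet basic protein gene, read 176 FPKM in B4 and at least 7.13 in every animal, Tubb1, the platelet tubulin gene, 33.8 in B4 and 1.71 in BD1, and Clec1b 44.0 in B4 and 43.7 in BD1. By group the sum ranged from 35.1 to 279 in bonded, 42.1 to 76.1 in bond-disrupted and 46.9 to 81.2 FPKM in virgin animals, and no marker was at 0 in every animal. The median difference of this list was −0.32 for bond-disrupted against bonded, −0.04 for virgin against bonded and 0.32 for virgin against bond-disrupted animals. None of the 9 was called (limma), beside 0% of all genes, and 1 had an unadjusted p under 0.05 in the first and 1 in the third comparison, beside 5.88% and 4.23% of all genes. Tubb1 differed by −0.75 (SE 0.47, limma adjusted p = 0.878; −0.33 without B4) in bond-disrupted against bonded animals, and Clec1b by −0.80 (SE 0.40, limma adjusted p = 1.00) in virgin against bonded animals. The part of these markers in the values of the erythroid genes was not tested. Without B4, a choice made after seeing the data, 7 of 10 pairs of erythroid genes still correlated with an adjusted permutation p under 0.05, r being 0.97 for Slc4a1 and Ahsp. Without both B4 and BD2, 3 of 10 did: Slc4a1 with Ahsp (r = 0.96), and Klf1 with Ahsp (0.82) and with Slc4a1 (0.75).

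Of the 12 neutrophil and granulocyte precursor symbols, 8 matched a row and 4 genes were tested, 2 of them with r over 0.5. The summed level of the 7 genes recovered was lowest in BD2 at 3.96 FPKM and was 20.7 in B4, beside 6.13 to 21.7 in the other 15 animals; by group it ranged from 6.13 to 20.7 in bonded, 3.96 to 19.2 in bond-disrupted and 7.13 to 21.7 in virgin animals. The receptor gene Csf3r ran from 2.66 FPKM in BD2 to 15.5 in V2, Cxcr2 from 0.869 in BD2 to 2.11 in B2, and Ltf, lactoferrin, from 0.0793 in BD2 to 3.27 in BD6. The cell division genes were also lowest in BD2, with a summed level of 6.44 FPKM beside 8.82 to 21.0 elsewhere, but they were next lowest in BD1, where the erythroid genes were high. This sum ranged from 11.4 to 16.0 in bonded, 6.44 to 21.0 in bond-disrupted and 9.67 to 14.7 FPKM in virgin animals. Cdk1 was lowest in BD2 (1.42 FPKM), as was Ccna2 (1.26), and Plk1 ranged from 0.712 to 1.33 FPKM. Their part in the erythroid values was not tested.

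Markers of the lung's own cells were set beside the erythroid genes in the same way, with a median r of 0.02 and 6.17% of genes with r over 0.5 as the background over all genes tested. Of 7 endothelial genes tested, 0 had r over 0.5 (median −0.09). Cdh5 ranged from 138 to 251 FPKM, Kdr from 102 to 225 and Cldn5 from 45.4 to 139, and Vwf was highest in BD2 at 108. Of 8 alveolar genes, 1 had r over 0.5 (median 0.22), Sftpc, which was lowest in BD2. Sftpb differed by 0.43 (SE 0.14, limma adjusted p = 0.809) in bond-disrupted against bonded animals, and Lamp3 ranged from 195 FPKM in B6 to 940 in BD3. Over the 11 lists, 0 of 94 genes tested were called in any comparison.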

How the data were processed

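Lung total RNA from 17 animals was made into strand-specific libraries. Per the labels, the submitters' processing notes name FastQC, Trim Galore 0.4.5, STAR 2.7.2, SAMtools 1.5 and featureCounts of Subread 1.5.3; the genome build is not given in the sources used here. The authors deposited FPKM for 27786 genes, with 1 column per animal and 0 columns left over. Gene names match RefSeq symbols of assembly ASM782708v3, which was used for names, biotypes and gene spans.

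Each FPKM had been divided by an entry of a vector of 27787 lengths, shifted by 1 row more in each column. Lengths, depths and reads were found jointly, by asking that FPKM × length × depth come out as whole reads. Under 200 reads, 98.2% to 98.8% of values per animal were then whole within 0.03 read, beside 5.46% to 6.55% with the gene's own length. Lengths that more than one multiple could give were settled from the level of at least 4 other genes divided by the same length. Of the lengths, 25576 were settled; 1432 of 1456 single-exon small RNA lengths equalled the RefSeq span. All 17 values were recovered for 23390 genes. Of the recovered values, 1.27% were fractions of a read. Recovered reads summed to 0.959 to 1.03 of the depth. On simulated tables of 27786 genes, the depth and every settled length were found.

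limma 3.58.1 in R 4.3.3 was fitted to log2(FPKM + 1) with the 3 groups in one model, two-sided. The study's methods name limma on FPKM and the thresholds used here (adjusted p under 0.1, at least 2-fold); the log2 scale and the single model are choices made here. In data simulated for bond-disrupted against bonded animals with 14073 genes, 98% of genes changed 4-fold and 43% of those changed 2-fold were called. The changed genes were drawn only from those with a mean log2(FPKM + 1) above 1, and the change was added on that scale. Of the erythroid genes only Alas2 has such a mean (3.10). The shares therefore do not apply to Slc4a1 (0.80), Ahsp (0.84), Epb42 (0.27) and Klf1 (0.73). Correlations used deviations from group means and two-sided permutation tests with 100000 draws, adjusted over 10 pairs (Python 3.11.15, numpy 2.4.6, scipy 1.17.1, pandas 2.3.3, numba 0.67.0, matplotlib 3.10.9). The alternatives were the deposited values, an additive term for the shifted lengths, recovered reads in voom (mean of at least 10 reads), a pseudocount of 0.1, other filters, a limma fit with a trend, fits of only 2 groups, scaling by median ratios, a replicate block for the family number, and leaving out each animal.

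The genes and lists were chosen with earlier results of these data known. Named in the text are the 5 genes; in each list the called genes, else the 2 with the highest mean FPKM and the 2 with the largest absolute difference; and the 10 most positively and 3 most negatively correlated genes. Gata1 and Hemgn are named besides, after their values were seen, and some genes under these rules are not reported here. Per the study, equal numbers mark siblings or cousins. Of 16 pairs of relatives, 7 had deviations over all genes tested that correlated above 0.1 (r from −0.32 to 0.43, mean 0.06): 5 of 6 between bonded and bond-disrupted, 2 of 5 between bonded and virgin and 0 of 5 between bond-disrupted and virgin animals. Promoter and protein sequences were not analysed here.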

Additional observations from a re-analysis of the deposited data

Results flagged for a closer look

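In groups of 5 or 6 animals, a value was listed here when its gap to the nearest other animal, on the log2(FPKM + 1) scale, was too large a part of the whole range of its group (Dixon's test at 95%). Chance lists about 1 in 20 groups, and 8 values were listed in 153 groups of values.

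For the erythroid genes, 4 values were listed in 15 groups. Ahsp in B4, at 3.24 FPKM, stood apart from the next bonded animal at 0.535. Epb42 in B4, at 1.34 FPKM, stood apart from the next at 0.202. Alas2 in BD2, at 0.958 FPKM, lay below the next bond-disrupted animal at 6.39. Epb42 in V4, at 0.523 FPKM, lay above the next virgin at 0.190.

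Among the other genes, Clec1b was listed in B4 (44.0 FPKM, the next bonded animal at 20.8). Hpx in BD3 (3.69 FPKM), Ldb1 in B1 (29.9 FPKM, the lowest bonded animal) and Cldn5 in V3 (79.6 FPKM, the lowest virgin) completed the list. B4 had the highest summed level of platelet markers of the 17 animals and BD2 the lowest of neutrophil and cell division markers; their part in these values was not tested.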

How the results depend on the processing

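Over 397 refits of the 5 erythroid genes under the alternatives, 0 calls were made, and the smallest adjusted p was 0.674, for Ahsp as deposited among only the genes tested with own lengths. As deposited, 40 genes were called for bond-disrupted against bonded, 113 for virgin against bonded and 35 for virgin against bond-disrupted animals, in place of 0, of which 29, 82 and 29 were among the genes tested with own lengths. Fitted to these 14073 genes alone, an alternative chosen after seeing the data, the deposited values gave 24, 65 and 28 calls in place of 0, a comparison in which only the lengths differ. Leaving out each animal gave 0 calls in the first 2 comparisons and 0 to 1 in the third, the 1 call appearing without BD6. The other alternatives gave 0 calls.

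Several differences changed direction, none of them called. As deposited they were −0.053 for Slc4a1 and 0.093 for Epb42 in bond-disrupted against bonded, −0.30 for Alas2, −0.17 for Ahsp and 1.00 for Klf1 in virgin against bonded, and −0.79 for Alas2, 0.40 for Slc4a1, −0.21 for Epb42 and 1.40 for Klf1 in virgin against bond-disrupted animals. With the additive term they were −0.040 for Alas2 in bond-disrupted against bonded, and 0.72 for Slc4a1 and 0.038 for Klf1 in virgin against bond-disrupted animals. With a pseudocount of 0.1 they were −0.048, 0.28 and 0.050 for the same 3. Recovered reads in voom gave 0.32 for Epb42 in virgin against bonded, and 0.72 for Slc4a1 and 0.10 for Klf1 in virgin against bond-disrupted animals.

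For some genes, alternatives without the added 1 FPKM gave larger values in the same direction. In bond-disrupted against bonded, Ahsp had 1.16 (additive), 1.22 (voom) and 0.93 (pseudocount 0.1), and Epb42 had −1.06 (voom) and −0.46 (pseudocount 0.1). In virgin against bonded, Ahsp had 1.00, 1.12 and 0.77 and Slc4a1 had 0.94, 1.12 and 0.72. In virgin against bond-disrupted animals, Epb42 had 1.38 (voom) and 0.44 (pseudocount 0.1). The other values under these alternatives are not all listed here.

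The family number as a replicate block called 0 genes in each comparison. It changed no call, and it turned the differences of Klf1 to 0.050 in virgin against bonded and of Slc4a1 and Klf1 to 0.063 and 0.066 in virgin against bond-disrupted animals.

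Leaving out 1 animal moved Alas2 from −0.17 to 0.44, and Klf1 from −0.067 to 0.050, in bond-disrupted against bonded. In virgin against bonded it moved Alas2 from −0.11 to 0.39 and Klf1 from −0.095 to 0.0089. In virgin against bond-disrupted animals it moved Alas2 from −0.36 to 0.24, Slc4a1 from −0.21 to 0.12 and Klf1 from −0.080 to 0.037. Without a change of direction, it moved Ahsp from 0.23 to 0.71, Slc4a1 from 0.093 to 0.49 and Epb42 from −0.21 to −0.12 in bond-disrupted against bonded; Slc4a1 from 0.11 to 0.45, Ahsp from 0.11 to 0.49 and Epb42 from −0.15 to −0.028 in virgin against bonded; and Ahsp from −0.38 to −0.026 and Epb42 from 0.0053 to 0.13 in virgin against bond-disrupted animals.

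Of 10 pairs, 8 correlated in the main analysis, 0 as deposited, where r was −0.28 for Slc4a1 and Klf1 and −0.16 for Ahsp and Klf1, 4 without the 2 animals farthest from the median and 3 without B4 and BD2. The cause of the changes with the animals left out was not tested. Epb42 has no value under the additive term, since BD2 is at 0; with a filter on the mean, only Alas2 was tested; and the filter dropped Epb42 without B4 and Klf1 without BD1, and dropped 1 of them where the 2 groups compared lacked that animal. The limit of depth is in the low genes: 17 of the 85 values rest on fewer than 20 reads, 8 of them for Ahsp and 7 for Epb42.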
